A study of Mus musculus with 24 samples.

Results

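The effect of treadmill training on fat miRNAs was examined in the 17 of 24 libraries that held little miR-150-5p, a miRNA abundant in lymphocytes. The libraries were selected on that measured value: CPM is a miRNA's count per 1 M reads of the library's total, and a library was kept where miR-150-5p was below 2000 CPM. The deposited series holds small RNA libraries of subcutaneous adipose tissue from female mice on a chow diet, in 4 groups. Sedentary wild type kept 5 libraries, trained wild type 4, sedentary kinase dead 4 and trained kinase dead 4, so 9 sedentary libraries were compared with 8 trained ones. Trained mice ran for 1 hour on 5 days of the week over 6.5 weeks at 16 m/min and could also use a running wheel. The labels leave out whether sedentary mice had a wheel, which kinase the kinase dead genotype concerns, which cells carry the change, and the age of the mice. The labels do not say that each library came from its own mouse, so the p-values below measure the spread between libraries.

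The selection itself was made on measured values and is given as a description. In the 17 kept libraries miR-150-5p lay between 497.5 and 911 CPM with a median of 707.5 CPM, and in the 7 left out it lay between 3547 and 7557 CPM. The library just inside the limit was sedentary wild type replicate 2 at 911 CPM, and the one just outside it was trained wild type replicate 2 at 3547 CPM, so no library lay near 2000 CPM. Other lymphocyte miRNAs split the same libraries. miR-142a-5p, made in all blood cell lineages, was at 463.9 to 1230 CPM in the kept libraries and at 6118 to 12480 CPM in the others. miR-155-5p, induced in activated lymphocytes, was at 48.71 to 83.61 against 302.9 to 627.8 CPM, and miR-342-3p at 71.13 to 131.8 against 244.4 to 577.6 CPM. miR-181a-5p (733.6 to 1712 against 1457 to 1970 CPM) and the myeloid miR-223-3p (124.8 to 248.2 against 170.3 to 233.9 CPM) overlapped. The kept libraries were therefore poor in lymphocyte miRNAs and not free of them. In such bulk samples, fewer cells of a type and less RNA per cell cannot be told apart.

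A mature miRNA is cut from 1 arm (5p or 3p) of a hairpin precursor and guides a silencing complex to messenger RNAs, mainly through its seed, bases 2 to 8 from its 5′ end. miRNAs that share a seed share many possible targets and are treated as a family. In fat, miRNAs of preadipocytes, mature adipocytes, vessels, nerve and resident immune cells are measured together. Several are known for restraining adipocyte differentiation, such as miR-27, miR-130 and miR-221/222, and others, such as miR-203, miR-378, miR-365 and miR-193b, for favouring brown or beige adipocytes, the fat cells that burn fuel for heat.

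The mature sequences of the miRNAs that the comparison turns on are shown here from RefSeq (mouse build GRCm38), written 5′ to 3′ with the seed in capitals. Those that were higher in trained libraries have unrelated seeds. The 3p arm of miR-199a is given beside the 5p arm because its values differed from those of the 5p arm. miR-199b-3p has the same mature sequence, so reads of this 3p arm cannot be assigned to a single hairpin.
miR-199a-5p: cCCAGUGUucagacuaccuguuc
miR-199a-3p: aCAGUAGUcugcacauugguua
miR-191-5p: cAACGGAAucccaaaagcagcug
miR-203-3p: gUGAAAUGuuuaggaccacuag
miR-203-5p: aGUGGUUCuugacaguucaaca
miR-193a-5p: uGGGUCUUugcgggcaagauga
miR-5121: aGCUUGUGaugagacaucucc
Of the leading lower miRNAs, miR-16-5p carries the seed AGCAGCA of the miR-15/16 family and miR-146a-5p the seed GAGAACU. The other tested miRNAs with these seeds are shown with them to make the sharing visible, followed by 4 leading lower miRNAs whose seed no other of the 506 tested features with a RefSeq sequence had.
miR-16-5p: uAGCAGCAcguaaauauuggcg
miR-15a-5p: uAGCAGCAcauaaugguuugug
miR-15b-5p: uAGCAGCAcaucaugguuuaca
miR-195a-5p: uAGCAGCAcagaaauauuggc
miR-497a-5p: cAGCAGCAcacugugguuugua
miR-322-5p: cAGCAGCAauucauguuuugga
miR-146a-5p: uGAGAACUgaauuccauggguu
miR-146b-5p: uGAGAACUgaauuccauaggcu
miR-142a-5p: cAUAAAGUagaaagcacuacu
miR-335-5p: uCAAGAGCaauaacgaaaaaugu
miR-324-5p: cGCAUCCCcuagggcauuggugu
miR-190a-5p: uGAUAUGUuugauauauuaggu

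No miRNA passed the test for training in these 17 libraries. edgeR's quasi-likelihood test with genotype as a covariate called 0 of 611 tested features at an adjusted p under 0.05 (Benjamini-Hochberg), 0% of those tested, and its smallest adjusted p was 0.0742. Without adjustment 83 features (13.6%) had p under 0.05, of which 32 were higher (5.24%) and 51 lower (8.35%) in trained libraries. DESeq2 on the same counts called 11 features (1.8%), 3 higher and 8 lower, and had 86 at an unadjusted p under 0.05. Without trained kinase dead replicate 2 edgeR called 21 features, 8 higher and 13 lower, without sedentary wild type replicate 5 it called 8, and without trained wild type replicate 3 it called 3. The groups' ranges overlapped for each of the 611 features (0% without overlap). The median log2 fold change over all features was -0.01, with 292 higher (47.8%) and 319 lower (52.2%), and 11 features (1.8%) had an adjusted p under 0.1. For features of at least 10 CPM the 95% interval of the log2 fold change reached a median of 0.30 to either side. With 9 against 8 libraries, differences smaller than that were mostly not told apart from 0 even before adjustment. A call after adjustment asked for more: miR-199a-5p, at 0.37 with an interval of 0.195 to 0.551, was not called. In what follows, values are CPM scaled by edgeR's TMM factors, and differences are log2 fold changes of trained over sedentary with their standard error (SE).

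**Figure D1:**
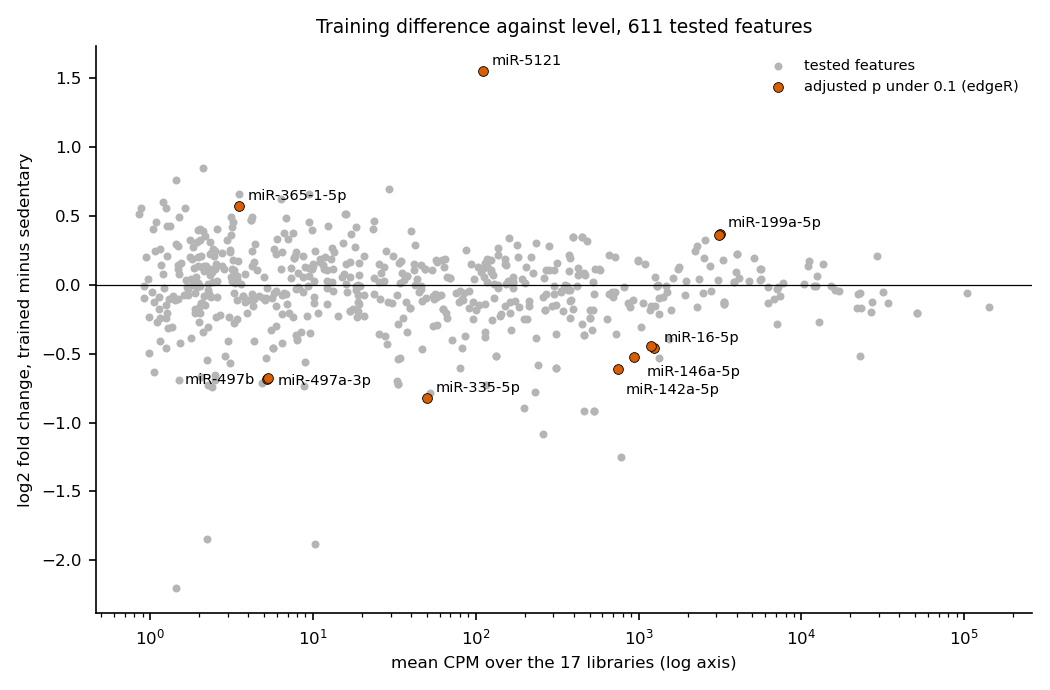
Each point is 1 of 611 tested miRNA features, by its mean CPM over the 17 libraries (log axis) and its log2 fold change of trained over sedentary. The 11 features with an adjusted p under 0.1 (edgeR) are coloured, and the lowest adjusted p among them was 0.0742; the cloud is centred near 0, at a median of -0.01.

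Depth differed between the groups. Kept libraries held 1.601 to 23.59 M reads, with a median of 3.47 M in sedentary and 11.17 M in trained libraries (two-sided exact permutation test of log2 totals within genotype, p = 0.0591), so that 3 reads stand for 0.127 to 1.87 CPM. With the log2 total added as a covariate, edgeR called 0 features, 69 had an unadjusted p under 0.05, and the smallest adjusted p was 0.285. In that fit the 20 leading miRNAs described below had the same sign, with miR-532-5p at -0.25 in place of -0.39, miR-193a-5p at 0.27 in place of 0.39 and miR-203-3p at 0.23 in place of 0.33. The 2 shallowest libraries, trained kinase dead replicate 2 (2.286 M reads) and sedentary wild type replicate 4 (1.601 M), stood apart from the rest on the first principal component, which held 21.2% of the variance. Without both, edgeR called 10 features, 4 higher and 6 lower, with a smallest adjusted p of 0.0105.

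miR-199a-5p, a miRNA of mesenchymal and stromal cells, was higher in trained libraries. Its locus on chr9:21496537-21496559 (minus strand, mm10, outside annotated genes on its strand) was at 2320, 2834 and 2983 CPM (lowest, median, highest) in sedentary and at 2864, 3544 and 4246 CPM in trained libraries. Each of the 8 trained libraries exceeded the sedentary median, and the ranges overlapped only at 1 trained library, kinase dead replicate 2 at 2864 CPM. The log2 fold change was 0.37 (SE 0.085; edgeR adjusted p = 0.0742). An exact two-sided permutation test within genotype gave p = 0.000227, and 0.0462 after Benjamini-Hochberg adjustment over all 611 features, by which 3 features (0.491%) passed. The other passing features were the copy of miR-199a-5p on chromosome 1, in an exon of Dnm3os, which has the same mature sequence and largely the same reads (log2 fold change 0.36, SE 0.086), and miR-191-5p. The adjusted p of 0.0462 thus counts miR-199a-5p at both copies and rests on that double count. The permutation test was not run with copies summed. With copies summed edgeR called 0 of 558 features, with a smallest adjusted p of 0.0831.

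The rest of the miR-199 family did not share that difference. The 3p arms, at 6273 to 7131 CPM per locus, had log2 fold changes of -0.02 (miR-199a-3p on chromosome 1), -0.01 (its copy on chromosome 9) and -0.03 (miR-199b-3p), each with an SE of 0.082 or 0.083. miR-199b-5p was at -0.04 (SE 0.135) and miR-214-3p, which is made from the same Dnm3os transcript, at -0.06 (SE 0.137). Reads of miR-199a-5p per read of the 3p arms were therefore compared directly, a ratio chosen after these values had been seen. miR-199a-3p and miR-199b-3p have the same mature sequence, so the 3p values above share reads. The ratio thus pools hairpins and is not that of the miR-199a hairpin alone. The ratio was 0.239, 0.268 and 0.311 (lowest, median, highest) in sedentary and 0.238, 0.364 and 0.385 in trained libraries. Of the 8 trained libraries, 7 lay between 0.356 and 0.385, above all 9 sedentary ones, and trained kinase dead replicate 2, at 0.238, lay below them all. The log2 difference was 0.38 (SE 0.082; exact permutation test within genotype, two-sided, p = 0.00159, not adjusted).

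**Figure D2:**
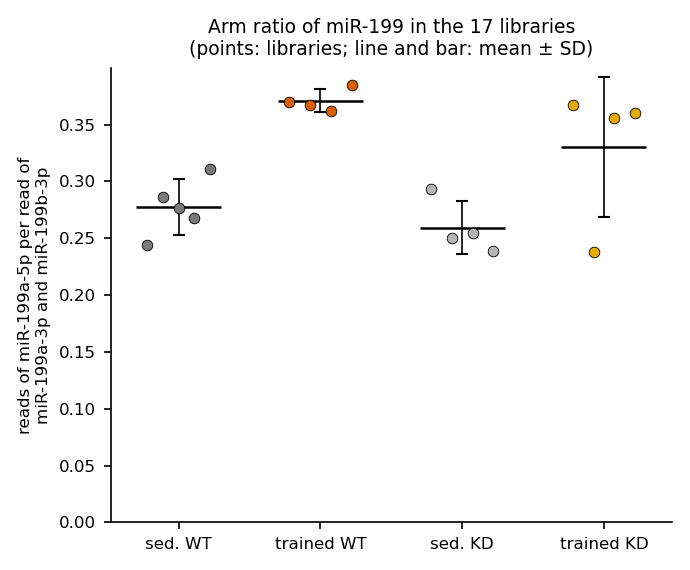
Reads of miR-199a-5p (2 loci summed) per read of the 3p arms of miR-199a and miR-199b (3 loci summed) in each of the 17 libraries, by group (WT, wild type; KD, kinase dead); bars show the mean and SD. The trained libraries, except 1 kinase dead library at 0.238, lie above the highest sedentary ratio of 0.311.

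miR-191-5p, an abundant miRNA expressed in most tissues, was the remaining feature to pass the permutation test. It was at 1657, 2055 and 2334 CPM in sedentary and at 2327, 2433 and 2498 CPM in trained libraries, so 1 sedentary library reached the lowest trained one. Its log2 fold change was 0.25 (SE 0.078; edgeR adjusted p = 0.16), and the exact permutation p adjusted over 611 features was 0.0462. That adjustment counted both copies of miR-199a-5p, as above. It lies on chr9:108568325-108568347 (plus strand), in an exon of 4833445I07Rik.

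miR-203 is known for promoting brown fat cell development and for differentiation of epidermis. miR-203-3p was at 1659, 2233 and 2827 CPM in sedentary and at 2077, 2907 and 3397 CPM in trained libraries, with 7 of 8 trained libraries above the sedentary median (log2 fold change 0.33, SE 0.112; edgeR adjusted p = 0.2). Its other arm, miR-203-5p, was at a median of 143.1 CPM in sedentary and 180.7 CPM in trained libraries (0.34, SE 0.119; adjusted p = 0.205), with all 8 trained libraries above the sedentary median. The miR-200 family, abundant in epithelia, was read beside miR-203 in the same libraries. miR-200a-3p was at 0.01 (SE 0.115), miR-200b-3p at 0.18 (SE 0.12) and miR-200c-3p at 0.13 (SE 0.108), and over 11 tested epithelial markers the median was 0.01 with none past an unadjusted p of 0.05. The summed level of these markers spanned 13160 to 22380 CPM in sedentary and 15520 to 22460 CPM in trained libraries. With the mean level of the epithelial markers as a covariate miR-203-3p was at 0.34 (SE 0.124; edgeR adjusted p = 0.296) and miR-203-5p at 0.36 (SE 0.13; 0.296). Which cells the miR-203 values come from was not tested.

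Other members of the upper set lay between 0.28 and 0.52, with 1 exception. miR-320-3p, which is processed without Drosha, was at a median of 434.1 CPM in sedentary and 561.8 CPM in trained libraries (0.32, SE 0.109; edgeR adjusted p = 0.205). miR-378a-5p, encoded in an intron of the mitochondrial regulator Ppargc1b, was at a median of 198.5 and 256.8 CPM (0.30, SE 0.112), while its far more abundant partner miR-378a-3p, at a mean of 13580 CPM, had a log2 fold change of 0.15 (SE 0.116). miR-145a-5p, a smooth muscle miRNA, was at 0.28 (SE 0.101), and its cluster partner miR-143-3p, the most abundant feature of its list at a mean of 142800 CPM, at -0.16 (SE 0.092). miR-193a-5p had 0.39 (SE 0.132) and miR-543-3p 0.52 (SE 0.201). The exception was miR-5121, at 34.95, 54 and 105.5 CPM in sedentary and at 47.04, 133.1 and 426.1 CPM in trained libraries. Its log2 fold change of 1.55 (SE 0.385; edgeR adjusted p = 0.0851) came with a wide spread, and only 6 of 8 trained libraries exceeded the sedentary median. Its locus, chr7:45126925-45126945 (minus strand), lies in the gene Rpl13a, a ribosomal protein gene. Whether reads of other RNAs from that gene were counted with it was not tested.

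**Figure D3:**
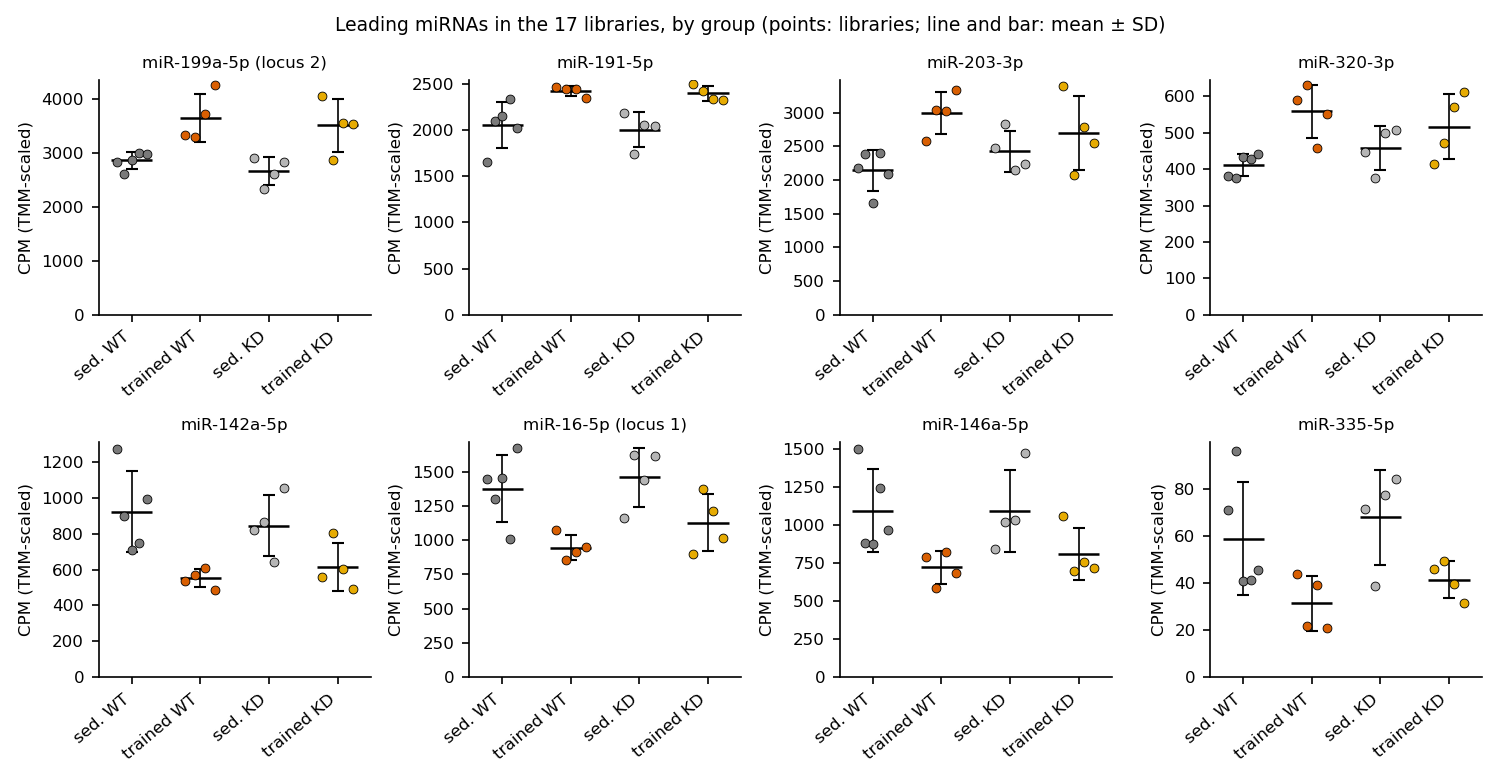
CPM (TMM-scaled) of 8 leading miRNAs in the 17 libraries, by group (WT, wild type; KD, kinase dead); points are libraries, and lines with bars give the mean and SD. miR-199a-5p and miR-191-5p are higher in nearly every trained library (for miR-191-5p, 2327 to 2498 against 1657 to 2334 CPM). The lower row shows miRNAs whose trained values lie mostly at the low end of the sedentary range or below it.

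Of the leading lower miRNAs, miR-142a-5p and miR-146a-5p are known from blood and immune cells. miR-142a-5p was at 642.9, 866 and 1271 CPM in sedentary and at 487.5, 563.3 and 802.7 CPM in trained libraries, and all 8 trained libraries lay below the sedentary median. Its log2 fold change was -0.61 (SE 0.139; edgeR adjusted p = 0.0742), and its 3p arm had -0.60 (SE 0.257). miR-146a-5p, induced by NF-kB signalling and a brake on inflammatory signalling, was at 845.8, 1020 and 1501 CPM in sedentary and at 587.9, 737.5 and 1063 CPM in trained libraries. Its log2 fold change was -0.52 (SE 0.143; edgeR adjusted p = 0.0939), and miR-146b-5p, which shares its seed and is encoded on another chromosome, had -0.53 (SE 0.203).

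The lymphocyte markers as a whole gave smaller values than miR-142a. Of 16 lymphocyte loci 14 were tested, 10 were lower and 4 higher, and the median was -0.16 beside -0.01 over all features. An unadjusted p under 0.05 was found for 2 of them, both lower, which is 14.3% beside 13.6% of all features and so near the background. miR-150-5p, used to choose the libraries, was at -0.08 (SE 0.116), miR-155-5p at -0.17 (SE 0.118), miR-342-3p at -0.25 (SE 0.124) and miR-181a-5p at -0.15 (SE 0.151). The list's counts and median include miR-150-5p and its 3p arm (-0.30, SE 0.169), so they are not independent of the selection. The summed level of the list ran from 4426 to 5952 CPM in sedentary and from 3931 to 5560 CPM in trained libraries. Myeloid miR-223-3p was at -0.11 (SE 0.113) and its 5p arm at -0.40 (SE 0.165), while myeloid miR-147-3p was at 0.30 (SE 0.248). What share of the miR-142a-5p and miR-146a-5p values goes with the number of blood cells was not tested.

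The miR-15/16 family restrains the cell cycle. miR-16-5p from the Dleu2 intron (chr14:61631936-61631957, minus strand) was at 1012, 1447 and 1672 CPM in sedentary and at 854.3, 982.9 and 1374 CPM in trained libraries. No trained library exceeded the sedentary median (log2 fold change -0.46, SE 0.116; edgeR adjusted p = 0.0851), and the copy of miR-16-5p in the Smc4 intron on chromosome 3, with the same mature sequence, gave -0.44 (SE 0.119). Of the 7 tested loci with the seed AGCAGCA 6 were lower, with a median of -0.36. miR-15a-5p, encoded beside miR-16-5p in Dleu2, was at -0.92 (SE 0.422), miR-497a-5p at -0.36 (SE 0.135), miR-195a-5p at -0.15 (SE 0.097) and miR-322-5p at -0.12 (SE 0.163), while miR-15b-5p, encoded beside the other miR-16 copy, was at 0.00 (SE 0.141). With the passenger arms included, 9 of 14 family loci were lower and 5 had an unadjusted p under 0.05, all lower, which is 35.7% beside 13.6% of all features. Those 5 were both copies of miR-16-5p, which share reads, both arms of miR-497a and miR-15a-5p, so they are not separate miRNAs. The 3p arm of miR-497a was scarce, at a mean of 5.229 CPM. The family median was -0.15, and 0.04 in the 7 libraries left out.

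The other lower members are encoded within host genes or in X-linked clusters. miR-335-5p, from an intron of the imprinted gene Mest, which marks expanding fat cells, was at 38.89, 71.1 and 96.14 CPM in sedentary and at 20.76, 39.27 and 49.23 CPM in trained libraries (-0.82, SE 0.217; edgeR adjusted p = 0.0859). miR-324-5p had a median of 90.05 CPM in sedentary and 65.81 CPM in trained libraries (-0.60, SE 0.174; adjusted p = 0.125), and no trained library exceeded the sedentary median. miR-532-5p, from the Clcn5 intron on the X chromosome, was at -0.39 (SE 0.134), and miR-374b-5p, from the Ftx transcript beside Xist, at -0.36 (SE 0.125). miR-190a-5p, from an intron of Tln2, was at -0.54 (SE 0.169), and miR-669c-5p, from the Sfmbt2 intron, at -0.47 (SE 0.136).

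Of the lists of fat biology, the one known for restraining adipogenesis leaned lower. Of its 20 loci 16 were tested and 12 were lower, 5 with an unadjusted p under 0.05 (31.2%) and 0 higher at that level, with a median of -0.27. Over all features 52.2% were lower, 13.6% had an unadjusted p under 0.05 in either direction and 8.35% a lower one. Those 5 were miR-222-5p (-0.42, SE 0.124), miR-221-5p (-0.30, SE 0.106), miR-221-3p (-0.25, SE 0.116), miR-130a-3p (-0.58, SE 0.265) and miR-130b-3p (-0.55, SE 0.213). Scarce among them were miR-222-5p and miR-130b-3p, at means of 6.421 and 2.227 CPM. Both arms of miR-221 are among the 5, and miR-130a-3p and miR-130b-3p share a seed, so the 5 are not independent. The more abundant miR-222-3p, at 344.4 CPM, had -0.19 (SE 0.157), and miR-31-5p, at 114.5 CPM, had -0.38 (SE 0.261). Across the 17 libraries miR-130a-3p, miR-31-5p and miR-222-3p varied with miR-151-5p (Pearson r of 0.879, 0.705 and 0.693), in a pattern described below. The miR-27 members of the list were at 0.20 (miR-27a-3p, SE 0.165) and 0.06 (miR-27b-3p, SE 0.103). The median was -0.38 within wild type and -0.07 within kinase dead libraries, and it was 0.10 in the 7 libraries left out.

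The list known for promoting brown or beige adipocytes leaned slightly higher. Of 30 tested loci 21 were higher, 5 with an unadjusted p under 0.05 upward and 1 downward (20% in all), and the median was 0.08, beside 47.8% higher and 13.6% at that p over all features. The median was 0.16 without trained kinase dead replicate 2 and 0.04 without trained wild type replicate 3. Upward these were both arms of miR-203, miR-378a-5p, miR-365-1-5p at 0.58 (SE 0.135; edgeR adjusted p = 0.0742) and miR-26a-1-3p at 0.76 (SE 0.244), and downward miR-26b-5p at -0.28 (SE 0.126). miR-365-1-5p and miR-26a-1-3p are scarce passenger arms, and the abundant arms miR-365-3p (0.20 and 0.22 at its copies, SE 0.123 and 0.12) and miR-26a-5p (-0.20 and -0.13, SE 0.129 and 0.123) did not match them. miR-193b-3p, a classical brown fat miRNA, was at -0.07 (SE 0.132). The list known for restraining these cells had a median of 0.05 over 19 tested loci, none past an unadjusted p of 0.05, and the list for promoting adipogenesis -0.09 over 14.

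Markers of tissues that can come along with a subcutaneous pad were read beside these values. The 10 tested muscle loci had a median of 0.00, with 0.81 in wild type and -0.99 in kinase dead libraries, and their summed level ran from 1094 to 11660 CPM in sedentary and from 1021 to 8855 CPM in trained libraries. Without the 5 libraries over 2000 CPM of miR-1a-3p, edgeR called 0 features and 45 had an unadjusted p under 0.05. Of those 5 libraries 3 were trained wild type, which left 1 library in that group. For this fit the loss of samples and the loss of muscle-rich libraries therefore cannot be told apart. The 7 red cell loci had a median of 0.35, none past an unadjusted p of 0.05, and 0.13 without trained wild type replicate 6. That median was set by miR-486 and the opposite-strand miR-3107, whose reads are shared (0.34 to 0.35), while miR-451a was at 0.03 (SE 0.264) and miR-144-3p at -0.15 (SE 0.327). The red cell loci had a summed level of 1961 to 6702 CPM in sedentary and 1973 to 7709 CPM in trained libraries. Endothelial miR-126a-3p was at -0.20 (SE 0.125) and its 5p arm at 0.02 (SE 0.113). Of 15 nerve loci 12 were lower (median -0.17), beside 52.2% of all features. They include copies of miR-9-5p, miR-124a-3p and miR-129-5p with the same sequence. At an unadjusted p under 0.05 were miR-129-5p, lower at both copies (-0.72, SE 0.265, and -0.70, SE 0.264), and 1 copy of miR-219a-5p, higher (0.48, SE 0.217). Within kinase dead libraries the first of these miR-129-5p copies was at -1.30 (SE 0.337; edgeR adjusted p = 0.37). Its value in kinase dead minus that in wild type was -1.11 (SE 0.458; edgeR adjusted p = 0.905). The 6 liver and gut loci had a median of 0.06. The let-7 (median -0.01 over 26 loci), miR-17 (0.02 over 10), miR-30 (-0.01 over 13) and miR-10 (0.04 over 16) families were centred near 0. The imprinted Dlk1-Dio3 cluster had 41 of 66 tested loci higher, beside 47.8% of all features, with a median of 0.08. An unadjusted p under 0.05 was found for 9.09% of them, beside 13.6% of all features. Its most abundant loci, miR-127-3p, miR-379-5p and miR-411-5p, were lower (-0.21, -0.32 and -0.28). Some of the 66 are opposite-strand loci that share reads.

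Several lower miRNAs shared a pattern across libraries that crossed the training labels. miR-151-5p, from an intron of the focal adhesion kinase gene Ptk2, had the largest difference of the 10 leading lower miRNAs, with 235.2, 1050 and 1433 CPM in sedentary and 196.6, 287.7 and 1677 CPM in trained libraries (-1.25, SE 0.395; edgeR adjusted p = 0.16). Of the trained libraries 7 lay between 196.6 and 513.3 CPM and 8 of 9 sedentary ones between 812.1 and 1433 CPM, so the values fell into separate levels with an exchange of 1 library each way. Sedentary wild type replicate 5, at 235.2 CPM, was as low as trained libraries, and trained kinase dead replicate 2, at 1677 CPM, was the highest of all 17. Without trained kinase dead replicate 2 the log2 fold change was -1.70 (adjusted p = 0.00734), and without sedentary wild type replicate 5 it was -1.32 (adjusted p = 0.101).

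Across the 17 libraries, 11 other features followed miR-151-5p with a Pearson r of log2 CPM of 0.8 or more. These are descriptions over libraries that also share the training label and the depth, with which miR-151-5p itself had r = -0.57 (log2 total). The closest were miR-193a-3p (r = 0.88), miR-15a-5p (0.88), miR-29b-3p (0.88 at 1 locus), miR-130a-3p (0.88) and miR-376a-3p (0.86), and miR-16-5p had 0.81 (Spearman 0.67). miR-199a-5p ran against it at -0.81, and so did miR-495-3p at -0.83. Over all 24 libraries r was 0.53 for miR-16-5p and -0.52 for miR-199a-5p, and 0.89 for miR-193a-3p. The abundant miR-22-3p, at a mean of 22780 CPM, also followed (0.81), with 50580 CPM in trained kinase dead replicate 2 beside 10170 to 18930 CPM in the other 7 trained libraries. miR-29b-3p was at 147.4 to 296.6 CPM in those 7 trained libraries, at 1518 CPM in trained kinase dead replicate 2, at 190.6 CPM in sedentary wild type replicate 5 and at 384.3 to 1426 CPM in the other 8 sedentary ones.

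The opposite arms of these hairpins had other values. Of the 11 opposite arms tested, 0 reached an r of 0.65 with miR-151-5p, and their r ran from -0.68 (miR-22-5p) to 0.29 (miR-151-3p). Several were scarce, such as miR-29b-1-5p, miR-130a-5p and miR-376a-5p at means of 1.966, 2.331 and 2.338 CPM. Few reads limit the r that such arms can reach. miR-22-5p and miR-16-1-3p were more abundant, at means of 107.5 and 165.3 CPM. miR-151-3p, from the same precursor as miR-151-5p and about as abundant (mean 883.7 CPM), was at -0.16 (SE 0.144) where miR-151-5p was at -1.25. miR-193a-3p was at -1.09 (SE 0.681) and miR-193a-5p at 0.39. miR-22-3p was at -0.51 (SE 0.295) and miR-22-5p at 0.09 (SE 0.129). miR-16-1-3p was lower like miR-16-5p (-0.33, SE 0.157) but had r = -0.06 with miR-151-5p. The 4 miR-29 loci with the seed AGCACCA were all lower. miR-29b-3p was at -0.91 and -0.92 at its copies, which share reads, miR-29c-3p at -0.38 (SE 0.266) and the abundant miR-29a-3p at -0.27 (SE 0.217). Their passenger arms were at 0.40 (miR-29b-1-5p, SE 0.184), 0.24 (miR-29b-2-5p, SE 0.142), -0.09 (miR-29a-5p, SE 0.229) and 0.01 (miR-29c-5p, SE 0.139).

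**Figure D4:**
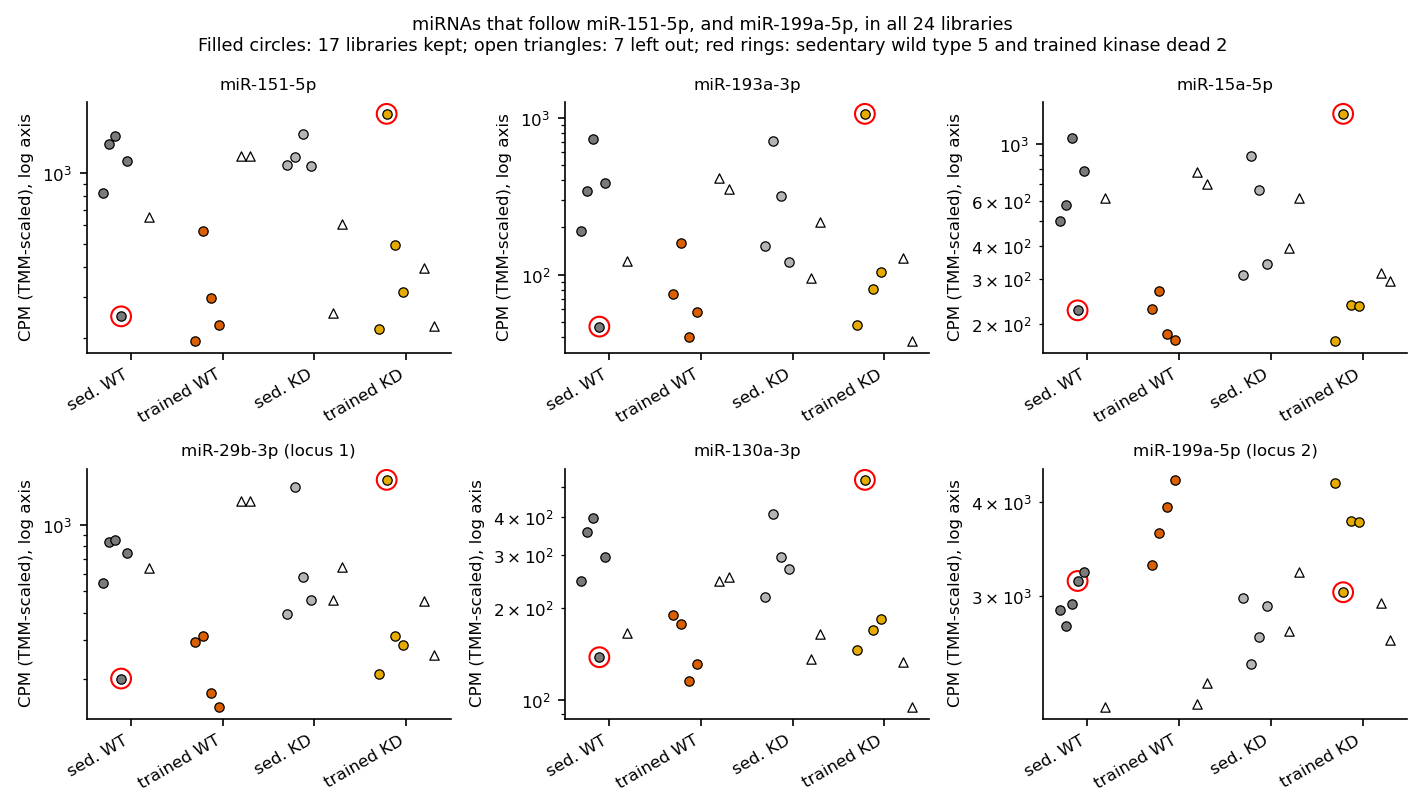
CPM (TMM-scaled over all 24 libraries, log axes) of 5 miRNAs that vary together and of miR-199a-5p, which runs against them, by group (WT, wild type; KD, kinase dead). Filled circles are the 17 kept libraries and open triangles the 7 left out; red rings mark sedentary wild type replicate 5 and trained kinase dead replicate 2, which lie on the side of the other training group for miR-151-5p.

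The 7 libraries left out show the same miRNAs without the training order. On the scale of all 24 libraries, miR-151-5p was there at 649.7 CPM in sedentary wild type, at 1181 and 1178 CPM in trained wild type, at 255.9 and 608.1 CPM in sedentary kinase dead and at 394.9 and 226.4 CPM in trained kinase dead. The highest of these were trained and the low ones came from both training groups. With the log2 CPM of miR-151-5p as a further covariate in the 17 libraries, edgeR called 0 features, 79 had an unadjusted p under 0.05, and the smallest adjusted p, 0.147, belonged to miR-146a-5p (-0.75). Under it miR-199a-5p was at 0.24 (adjusted p = 0.397), miR-16-5p at -0.22 (0.597) and miR-203-3p at 0.15 (0.785), while miR-320-3p was at 0.33 (0.397) and miR-324-5p at -0.56 (0.361). Since miR-151-5p itself differed with the training label, this fit cannot tell apart training and the pattern that goes with it.

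Within genotypes the same contrast called nothing either. In wild type (5 against 4 libraries) edgeR called 0 of 642 features (0%) and 84 had an unadjusted p under 0.05 (13.1%), with a smallest adjusted p of 0.248. In kinase dead (4 against 4) it called 0 (0%), and 46 had an unadjusted p under 0.05 (7.17%), with a smallest adjusted p of 0.37. The difference between genotypes, tested as an interaction, also gave 0 calls (0%), with 12 features at an unadjusted p under 0.05 (1.87%) and a smallest adjusted p of 0.905. miR-199a-5p was at 0.35 (SE 0.116) in wild type and 0.42 (SE 0.122) in kinase dead libraries, and miR-191-5p at 0.24 (SE 0.112) and 0.28 (SE 0.119). miR-203-5p was at 0.54 (SE 0.154) and 0.13 (SE 0.163), and miR-324-5p at -0.87 (SE 0.224) and -0.28 (SE 0.233), with unadjusted p of 0.0802 and 0.0824 for the difference between genotypes. Of the 20 leading miRNAs, 14 had the larger size in wild type, and for none was the unadjusted p of that difference below 0.0802.

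The same contrast was fitted over all 24 libraries, and since the 17 are among them, the values are set side by side only. With genotype as a covariate edgeR called 0 of 616 features (0%), 35 had an unadjusted p under 0.05 (5.68%), and the smallest adjusted p was 0.428. miR-142a-5p was at -0.61 in the 17 and 0.085 (SE 0.695) in the 24, among which the 7 added libraries held far more of it (6118 to 12480 CPM unscaled, as above). miR-199a-5p was at 0.37 and 0.24 (SE 0.111), miR-16-5p at -0.46 and -0.23 (SE 0.147), and miR-203-3p at 0.33 and 0.33 (SE 0.119). The medians of the lymphocyte markers were -0.16 and 0.07, and those of the Dlk1-Dio3 cluster 0.08 and -0.10. The lymphocyte list holds miR-150-5p, on which the 17 libraries were chosen, so its medians are not independent of that choice.

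The training difference was then compared between the 17 libraries and the 7 left out, which share no library. The test of that difference called 0 of 708 features (0%; edgeR, smallest adjusted p 0.397), with 70 at an unadjusted p under 0.05 (9.89%). Among the 20 leading miRNAs 10 had the same sign in the 7 libraries and 10 the other sign, and 10 had an unadjusted p under 0.05 for the difference, 9 of them with a smaller or opposite value in the 7. These miRNAs were chosen for their size in the 17, which by itself favours smaller values elsewhere. miR-199a-5p was at -0.07 (SE 0.154) in the 7 (unadjusted p of the difference 0.0191, adjusted 0.439), miR-191-5p at -0.12 (SE 0.137; 0.0257) and miR-335-5p at 0.27 (SE 0.365; 0.0259). miR-203-3p was at 0.46 (SE 0.18) and miR-203-5p at 0.94 (SE 0.203), the latter larger than in the 17 (unadjusted p of the difference 0.0202, adjusted 0.439). miR-193a-5p was at 0.54 (SE 0.212) and miR-146a-5p at -0.37 (SE 0.224), of the same sign as in the 17 libraries.

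**Figure D5:**
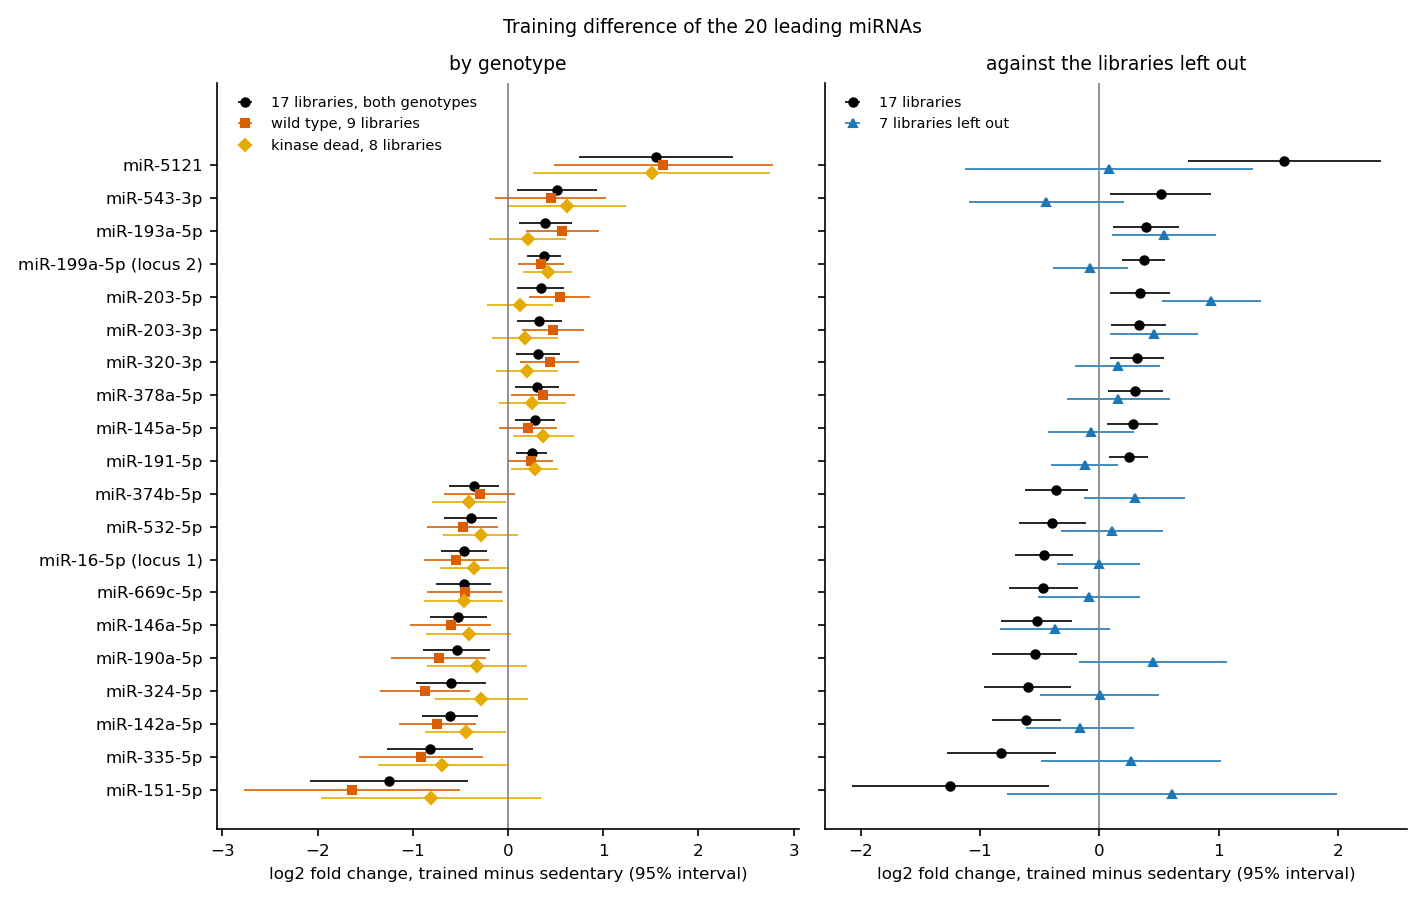
Log2 fold change of trained over sedentary with its 95% interval for the 20 leading miRNAs, on the left in the 17 libraries and within each genotype, on the right in the 17 libraries and in the 7 left out. miR-203-5p, miR-203-3p and miR-193a-5p lie above 0 in both sets of libraries (0.94, 0.46 and 0.54 in the 7), while miR-199a-5p is at -0.07 and miR-16-5p at -0.01 in the 7.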

How the data were processed

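The deposited table holds unnormalized read counts at 2045 mature miRNA loci for each library. The tools named in the submitters' processing notes are featureCounts, Bowtie2, Trim Galore and CASAVA 1.8.2, with the build mm10. Their other versions and the settings for strand and multiple mapping were not given in the sources used here. Loci were named by RefSeq (1674) or GENCODE hairpins (371), on GRCm38. Copies with the same sequence (216 loci) and opposite-strand loci (74 of 76 within 5% of their partner's total) share reads and were tested as separate features.

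Totals of the 17 kept libraries were 1.601 to 23.59 M reads. edgeR 4.0.16 (R 4.3.3) was run with TMM factors and filterByExpr, which kept 611 features; the 1434 below it held 0.0178% of the reads. P-values were adjusted over all tested features with the Benjamini-Hochberg method, at a threshold of 0.05. Exact permutation tests used log2 CPM (prior count 2) and all 8820 splits of the training labels within genotype; their p-values were adjusted over all features, where adjustment over the named miRNAs alone had been planned. DESeq2 1.42.0 and limma 3.58.1 (voom) were alternatives. The fits were tested on simulated data. Counts of the 28 library pairs within groups differed by a chi-square of at least 79.3 for each degree of freedom, so none of these pairs looked like a library deposited again. Replicate numbers follow accession order and pair nothing.

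Leading miRNAs are the 10 with the smallest p in each direction among features of at least 10 CPM; the text also names list members, seed families and arms, and miR-151-5p's followers, some chosen after their values were seen. The libraries, lists and members were chosen with earlier results of these data known. Of 611 tested features 506 had a RefSeq sequence.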

Additional observations from a re-analysis of the deposited data

Results flagged for a closer look

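Of the leading miRNAs, 5 had 1 library that stood far from the others of its training group, by Dixon's test at the 95% level. The test was run on 40 groups, 2 for each leading miRNA, and chance flags about 1 in 20 groups. Trained kinase dead replicate 2, among the shallowest libraries at 2.286 M reads, was that library for 3 of them. There miR-151-5p was at 1677 CPM, with the next trained library at 513.3 CPM, miR-142a-5p was at 802.7 CPM with the next at 609.3 CPM, and miR-193a-5p was at 29.89 CPM with the next at 43.04 CPM. In each case its value lay on the sedentary side. miR-543-3p was at 29.58 CPM in trained kinase dead replicate 5, with the next trained library at 20.2 CPM, and without that library its log2 fold change was 0.38, the smallest value over libraries left out in turn. miR-374b-5p was at 824.7 CPM in sedentary kinase dead replicate 4, with the next sedentary library at 555.6 CPM, and without it the log2 fold change was -0.25. The sources of these values were not tested.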

How the results depend on the processing

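The number of called features, 0 in the fit reported, depended on the tool and on single libraries. It was 11 with DESeq2, 1 with no filter on low counts, 2 with features of at least 10 CPM only, 4 with no genotype term and, added after seeing the data, 10 without the 2 libraries under 2.5 M reads. DESeq2's calls included miR-497b and miR-497a-3p, opposite-strand loci named here for their call only. Leaving out each library in turn gave 0 to 21 calls, with 21 without trained kinase dead replicate 2, 8 without sedentary wild type replicate 5, 3 without trained wild type replicate 3, and 0 without any other. Features at an unadjusted p under 0.05 numbered 83, and 152 with no filter, 53 at 10 CPM or more, 35 in all 24 libraries and 45 without the libraries rich in miR-1a-3p (added after seeing the data), with a range of 58 to 112 over libraries left out. For training within wild type this count was 84 of 642 (43 to 90 over libraries left out), and 47 at 10 CPM or more. Within kinase dead it was 46 of 642 (26 to 62), and 24 at 10 CPM or more. For the difference between the 17 and the 7 libraries it was 70 of 708 (38 to 93, lowest without trained wild type replicate 1). At 10 CPM or more that last count was 39. For the difference between genotypes it ran from 5 to 35 over libraries left out, lowest without trained wild type replicate 6 and highest without trained kinase dead replicate 4. The only reversal among leading miRNAs was miR-142a-5p, at 0.085 in all 24 libraries. Upper quartile factors moved the median of all features to 0.08. The causes were not tested. No paired analysis was possible because each library carries its own number in the labels. Depth limits scarce miRNAs: at 1.601 M reads, 3 reads stand for 1.87 CPM.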
